A study of Mus musculus with 24 samples.

Results

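The aspartate and alanine aminotransferases of the liver, with the malate dehydrogenases that work beside them, were followed as 6 genes: Got1, Got2, Gpt, Gpt2, Mdh1 and Mdh2. The group was selected on measured values, because Got1 was among the genes that stood lower in the mice fed the obesogenic diet, and the other members were added as its enzyme relatives. Its members were all probes whose gene name in the scanner output matched one of these symbols, 12 of the 32176 probes with a log2 value, for 6 of 21559 gene symbols. Because the choice of Got1 used both comparisons against the reference mice, those 2 differences of Got1 are given here as a description, without a test.

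Liver RNA of 24 male C57Bl6J mice was hybridised to Agilent mouse arrays in 1 colour (Cy3), 1 array per mouse. The mice came from the third generation of breeding in which the breeding diet held either a fish oil with much eicosapentaenoic acid (EPA, the n-3PUFA lineage) or a sunflower oil with much oleic acid (the control fatty acid lineage). The reference group (STD_Cont, 9 arrays) was of the control lineage on a standard, low-fat diet. The HFoleic group (HFD_Cont, 8 arrays) was of the same control lineage on a diet high in fat and sucrose, and the HFepa group (HFD_O3, 7 arrays) was of the EPA lineage on that obesogenic diet. No agent other than the diets and oils was given, all mice were killed while fasting, and their age is not in the labels. The EPA lineage was not studied on the low-fat diet, so diet and lineage differ together between HFepa and reference and cannot be told apart in that comparison. Both comparisons against the reference share the 9 reference arrays. In whole liver, fewer cells of a type and less RNA per cell cannot be told apart.

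Aminotransferases move an amino group from an amino acid to a keto acid, with pyridoxal phosphate as cofactor. Aspartate aminotransferase interconverts aspartate and oxaloacetate, and alanine aminotransferase interconverts alanine and pyruvate, each against glutamate and 2-oxoglutarate. Got1 and Gpt are the cytosolic forms, and Got2 and Gpt2 the mitochondrial ones. Together with the cytosolic and mitochondrial malate dehydrogenases Mdh1 and Mdh2, Got1 and Got2 form the malate-aspartate shuttle, which carries reducing equivalents into mitochondria. In the fasted liver, alanine aminotransferases feed carbon of alanine into gluconeogenesis, and the enzymes released into blood are the classical clinical marks of liver damage.

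The probes decide what each value stands for, so some of them are shown here. They are 2 of the 3 of Got1 and 1 of the 2 of Gpt2, the genes with called probes. For Gpt, the counterpart of Gpt2, 1 of its 2 is shown. The 3′ probes of these genes are not printed. The capitals mark the 50 bases that 2 of the 3 Got1 probes share. These 2 probes therefore read nearly the same stretch of the transcript, whereas the third Got1 probe lies in its 3′ part and shares no run longer than 6 bases with them. Each probe is 60 bases long, and coordinates are those of the scanner files (mm9, 1-based). Probes are called 3′ or inner by the transcript positions in those files, and junction where their coordinates span more than the probe, and whether they lie in coding or untranslated sequence was not annotated here.
Got1, inner probe, chr19:43579114-43579173, minus strand: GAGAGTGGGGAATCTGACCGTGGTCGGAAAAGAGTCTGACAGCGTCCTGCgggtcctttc
Got1, junction probe, chr19:43579124-43581417, minus strand, across an intron: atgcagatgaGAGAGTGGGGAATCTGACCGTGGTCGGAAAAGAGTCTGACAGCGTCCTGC
Gpt, inner probe, chr15:76528440-76528499, plus strand: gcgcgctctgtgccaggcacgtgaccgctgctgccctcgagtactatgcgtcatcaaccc
Gpt2, junction probe, chr8:88043487-88045262, plus strand, across an intron: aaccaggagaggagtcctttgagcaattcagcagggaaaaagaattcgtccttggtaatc

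The regions before the start sites of Got1 and Gpt2, the 2 genes with called probes, are printed next. They were read from RefSeq (GRCm38.p6, 250 bases before the annotated start), in which 5 of the 6 members had an entry and Gpt had none. The capitals mark CCAAT on either strand (ATTGG on the other), the letters of the CCAAT box.
Got1, chr19:43524606-43524855, minus strand: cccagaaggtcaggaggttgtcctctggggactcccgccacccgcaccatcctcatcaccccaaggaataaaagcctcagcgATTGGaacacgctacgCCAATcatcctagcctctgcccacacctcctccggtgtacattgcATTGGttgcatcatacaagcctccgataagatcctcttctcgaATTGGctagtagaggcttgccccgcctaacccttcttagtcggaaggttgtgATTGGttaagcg
Gpt2, chr8:85492326-85492575, plus strand: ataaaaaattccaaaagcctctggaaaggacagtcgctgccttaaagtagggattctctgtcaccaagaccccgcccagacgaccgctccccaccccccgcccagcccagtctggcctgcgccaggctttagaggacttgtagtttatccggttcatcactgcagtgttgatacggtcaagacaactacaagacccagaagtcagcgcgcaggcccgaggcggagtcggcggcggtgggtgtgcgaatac
The window of Got1 held 5 matches to CCAAT, and at least as many were held by 70 of 32851 RefSeq windows of that length (0.213%). That of Mdh1 held 2, and those of Got2, Gpt2 and Mdh2 held 0, whereas 33.8% of all windows held at least 1. The E-box CACGTG (6.02% of all windows) and the amino acid response element TGATGNAAT (0.816%) were searched on both strands and matched in none of the 5 members. The cAMP response element TGACGTCA (1.55%) matched only in Mdh2, once in that window. The Sp1 box GGGCGG (32.7% of all windows) matched at 2 places in Gpt2 and at 1 each in Mdh1 and Mdh2, and in Got1 and Got2 it had 0 matches. These matches describe letters in a window and say nothing of binding.

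All 12 member probes were well above background on every array, as were 50.9% to 60.8% of all probes per array, and 0 spots were saturated. The 5 hepatocyte markers (among them Alb and Apoa1) had median log2 signals of 17.57 in reference, 17.56 in HFoleic and 17.58 in HFepa. A marker passed where it was well above background on a share of at least 0.75 of the arrays in every group. Of the other markers, Ckm and Acta1 of muscle and Adipoq and Plin1 of adipocytes did not pass. Nor did Cpa1, Pnlip and Prss2 of pancreas and Epcam of bile duct. The rest passed, namely 3 of 5 for muscle, 2 of 4 for adipocytes, 2 of 5 for pancreas and 3 of 4 for bile duct. For blood, all 5 on the array passed. Muscle markers reached 7.97 on reference replicate 3, and adipocyte markers ran from 6.22 to 9.00 within reference. The share of other tissue in each sample was not tested. Reference replicate 5 stood apart, with a mean correlation of 0.977 with its own group where no other array fell below 0.986. On it the hepatocyte markers were the lowest of the 24 arrays (17.26) and the stellate cell (11.22) and bile duct markers (7.80) the highest, and it also held the highest value of all 3 Got1 probes, both Gpt2 probes, the 3′ probe of Gpt and Mdh2. The Got1 and Gpt2 differences and the correlations are given with and without it, and the part of those markers in them was not tested.

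**Figure D1:**
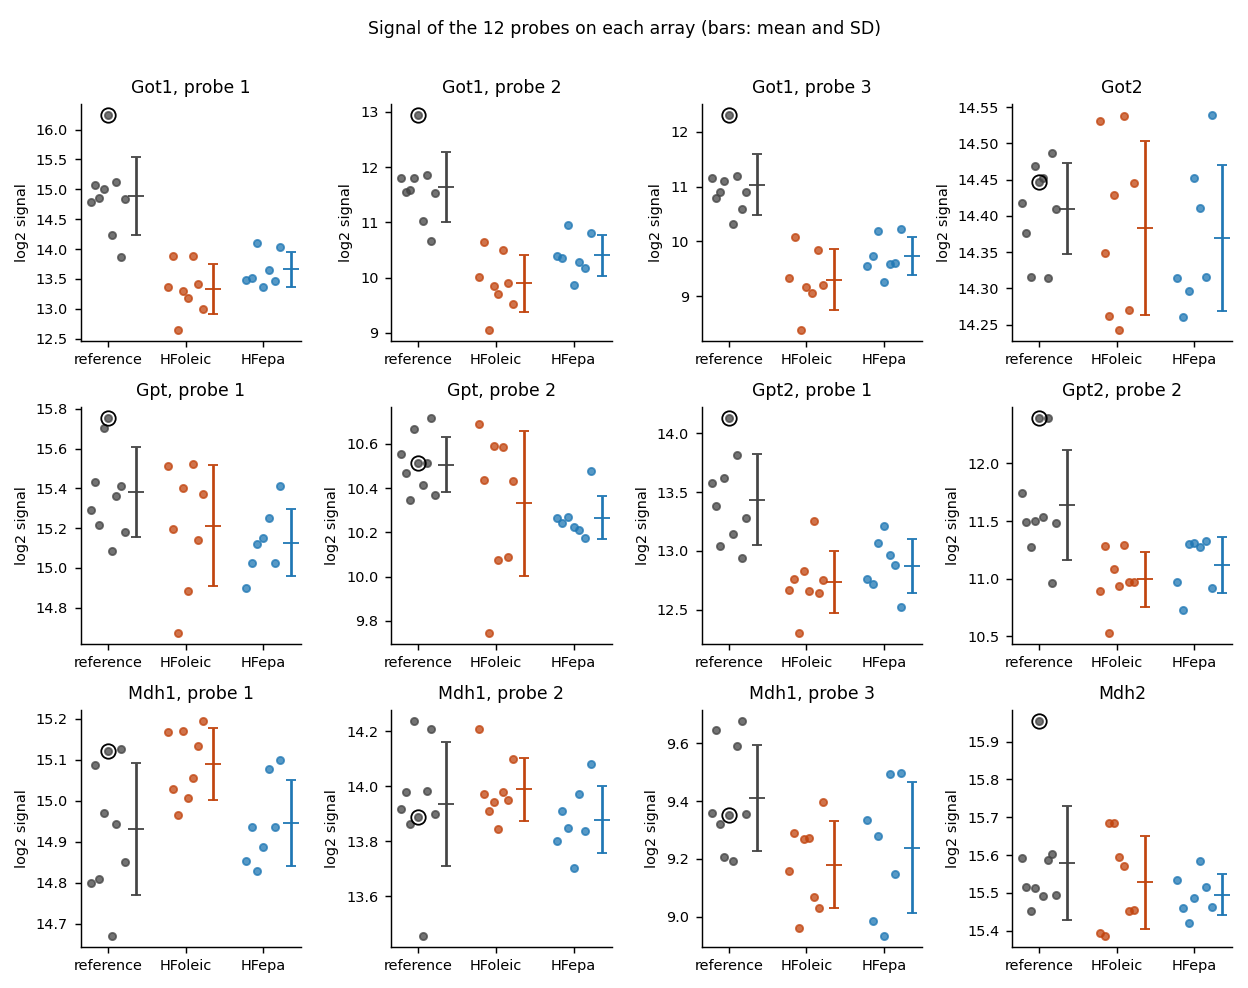
Log2 signal of the 12 member probes on each of 24 arrays, with 1 point per mouse, in columns for reference, HFoleic and HFepa, bars for the mean and SD, a ring around reference replicate 5 and a separate log2 axis in each panel. Probe 1 is the 3′ probe, Got1 probe 2 the inner and probe 3 the junction probe, and Gpt2 probe 2 the junction probe. The Got1 points of both obesogenic groups sit mostly below the reference points, those of Gpt2 are shifted less, and those of Got2 and Mdh2 overlap in all 3 groups.

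Got1, the cytosolic aspartate aminotransferase, was lower in both groups on the obesogenic diet, on all 3 of its probes. On the 3′ probe (chr19:43574278-43574337) the log2 signal had a lowest, median and highest value of 13.87, 14.86 and 16.24 in reference, of 12.64, 13.33 and 13.89 in HFoleic, and of 13.36, 13.52 and 14.10 in HFepa. The ranges overlapped at their edges, and 6 of 8 HFoleic arrays and 5 of 7 HFepa arrays lay below the lowest reference array. The group means differed by -1.56 (2.95-fold lower in HFoleic) and by -1.23 (2.35-fold lower in HFepa).

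The inner probe of Got1, which lies nearer the 5′ end, gave the same picture with somewhat wider gaps. It had a lowest, median and highest signal of 10.67, 11.59 and 12.95 in reference, 9.05, 9.87 and 10.65 in HFoleic and 9.86, 10.36 and 10.95 in HFepa. Every HFoleic array was below every reference array, while HFepa overlapped the reference. Mean differences were -1.75 (3.36-fold lower) in HFoleic and -1.24 (2.36-fold lower) in HFepa.

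The junction probe of Got1, which overlaps its inner probe and is no independent reading, ran from 10.32 over 10.91 to 12.31 in reference. In HFoleic, where replicate 8 had no value and 7 arrays were left, it ran from 8.38 over 9.21 to 10.08, and in HFepa from 9.27 over 9.61 to 10.22. Neither obesogenic group overlapped the reference on this probe. The differences were -1.73 (3.32-fold lower) and -1.29 (2.45-fold lower).

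Got1 differed from the reference in the same direction on each slide and in each row of the array slides, though by unequal amounts. On the 3′ probe the HFoleic difference was -2.18, -1.54 and -1.04 within slides 1, 2 and 3, and the HFepa difference was -1.69, -1.07 and -0.88. Within the 2 rows it was -1.48 and -1.63 in HFoleic and -1.24 and -1.21 in HFepa. Reference replicate 5, the array that stood apart, lay highest on all 3 probes. Without it the HFoleic differences of the 3′, inner and junction probes were -1.39, -1.58 and -1.57, and the HFepa differences were -1.06, -1.08 and -1.13.

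Between the obesogenic groups, a comparison that did not enter the choice of Got1, the gene stood higher in HFepa than in HFoleic by 0.33 on the 3′ probe (95% interval -0.17 to 0.82), by 0.51 on the inner probe (-0.02 to 1.03) and by 0.44 on the junction probe (-0.08 to 0.96). None passed limma's test with Benjamini-Hochberg adjustment over all probes (adjusted p = 0.704, 0.557 and 0.614). Exact two-sided permutation of the group labels gave p = 0.108, 0.0502 and 0.102, or 0.260 each after adjustment over the 12 member probes. The HFepa and HFoleic ranges overlapped on each probe. The intervals thus leave room for no difference as well as for one of up to 1.03 on the inner probe.

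Gpt2, the mitochondrial alanine aminotransferase, was the other member that fell on the obesogenic diet in the control lineage. On its 3′ probe (chr8:88050856-88050915) the signal ran from 12.94 over a median of 13.38 to 14.13 in reference, and from 12.30 over 12.71 to 13.25 in HFoleic. All 8 HFoleic arrays lay below the reference mean and 7 of 8 below the lowest reference array. The difference was -0.70 (SE 0.14, 95% interval -0.998 to -0.409), 1.63-fold lower in HFoleic, with an adjusted p of 0.00456 in limma.

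The junction probe of Gpt2, printed above, ran from 10.96 over 11.50 to 12.39 in reference and from 10.53 over 10.97 to 11.29 in HFoleic, so the ranges overlapped more. It was lower in HFoleic by -0.65 (SE 0.16, limma adjusted p = 0.0153), a fold of 1.57. Leaving out the reference array that stood apart gave -0.62 (adjusted p = 0.00639) and -0.55 (0.0243) for the 2 probes. Within slides 1, 2 and 3 the differences were -1.20, -0.63 and -0.29 on the 3′ probe and -1.19, -0.64 and -0.13 on the junction probe, all of one sign and unequal in size.

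In HFepa the values of Gpt2 lay between. Its 3′ probe ran from 12.52 over 12.88 to 13.21, with 4 of 7 arrays below the lowest reference array, and the junction probe from 10.72 over 11.28 to 11.33. The differences from the reference were -0.56 (95% interval -0.87 to -0.26, adjusted p = 0.0868) and -0.52 (-0.87 to -0.18, adjusted p = 0.155), neither of which passed limma's test. The difference between HFepa and HFoleic was 0.14 (-0.17 to 0.45, adjusted p = 0.827) on the 3′ probe and 0.13 (adjusted p = 0.878) on the junction probe. Gpt2 is thus not shown to differ between the obesogenic groups.

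**Figure D2:**
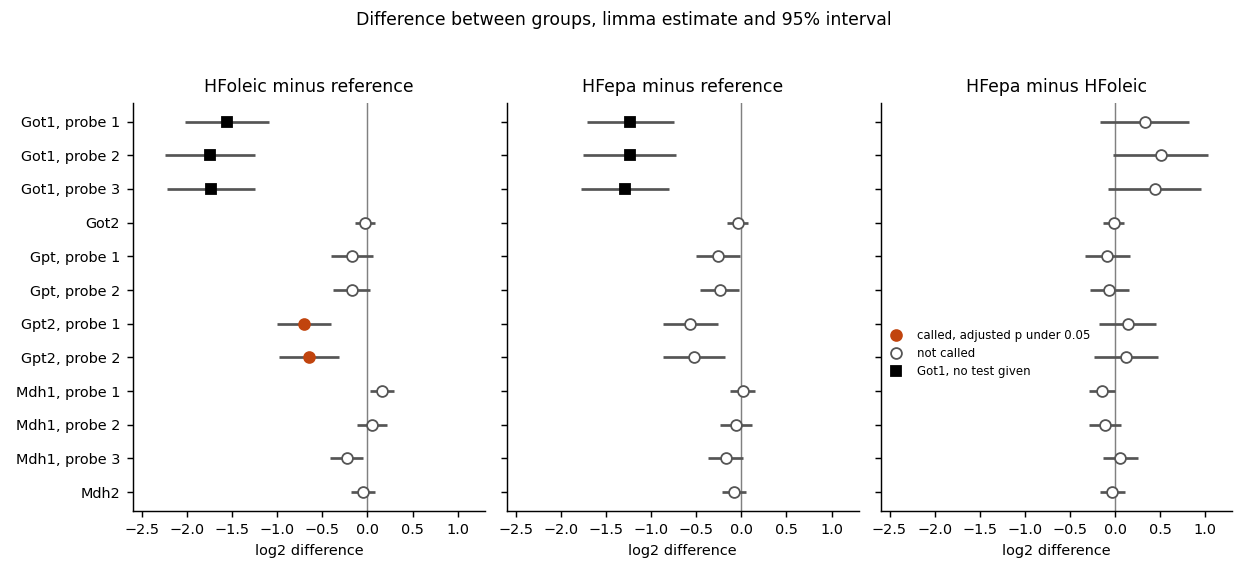
Log2 difference of each of the 12 member probes in the 3 comparisons (HFoleic minus reference, HFepa minus reference, HFepa minus HFoleic), with 95% intervals from limma and a line at 0. The Got1 differences against reference, which chose the gene, are black squares without a test. Of the other probes, the 2 of Gpt2 are called in HFoleic against reference.

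Gpt, the cytosolic alanine aminotransferase, was measured by 2 probes that passed the test in no comparison. The 3′ probe (chr15:76530007-76530066) ran from 15.09 over 15.36 to 15.75 in reference, from 14.67 over 15.28 to 15.52 in HFoleic and from 14.90 over 15.12 to 15.41 in HFepa, and the ranges overlapped. It differed from the reference by -0.17 in HFoleic (95% interval -0.40 to 0.07, adjusted p = 0.443) and by -0.26 in HFepa (-0.499 to -0.013, adjusted p = 0.358). The inner probe ran from 10.34 over 10.51 to 10.72, from 9.74 over 10.44 to 10.69 and from 10.17 over 10.24 to 10.48 in the same order of groups. Its differences were -0.18 (-0.38 to 0.03, adjusted p = 0.343) and -0.24 (-0.453 to -0.026, adjusted p = 0.322), and 6 of 7 HFepa arrays lay below the lowest reference array. The HFepa intervals of both probes exclude 0, but neither difference passed after adjustment over all probes. Between HFepa and HFoleic the probes of Gpt differed by -0.09 and -0.06 (adjusted p = 0.881 and 0.910).

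Whether the mitochondrial and the cytosolic alanine aminotransferase differed from each other in their response was tested within arrays, a test added after the values were seen. The log2 difference Gpt2 minus Gpt was lower in HFoleic than in reference by -0.53 on the brightest probe of each gene, with all 8 HFoleic arrays below the reference mean (exact two-sided permutation over 24310 splits, p = 0.000864). On the other probe of each gene it was lower by -0.47 (exact permutation p = 0.0278). For HFepa against reference the same quantity was -0.31 (exact permutation, p = 0.0579) and -0.28 (p = 0.221), and for HFepa against HFoleic 0.23 (p = 0.114) and 0.19 (p = 0.192). The difference of Gpt2 was therefore unequal to that of Gpt in the control lineage, whereas in HFepa the test did not pass. Single arrays decided the HFepa value on the brightest probes, where leaving out HFepa replicate 7 gave -0.20 (exact permutation p = 0.143) and leaving out reference replicate 3, reference replicate 8 or HFepa replicate 4 gave p = 0.0468, 0.0124 and 0.0354. For HFepa against HFoleic leaving out HFepa replicate 7 gave an exact permutation p of 0.0050. Without reference replicate 5 the difference from the reference was -0.49 in HFoleic (exact permutation p = 0.00155) and -0.27 in HFepa (exact permutation p = 0.103).

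Got2, the mitochondrial aspartate aminotransferase, passed the test in no comparison and varied little within groups. Its probe (chr8:98388339-98388398) ran from 14.31 over 14.42 to 14.49 in reference, from 14.24 over 14.39 to 14.54 in HFoleic and from 14.26 over 14.32 to 14.54 in HFepa. The 3 ranges overlapped, with SDs of 0.06, 0.12 and 0.10. Of the 8 HFoleic arrays, 3 lay below the lowest and 2 above the highest reference array. Of the 7 HFepa arrays, 3 lay below and 1 above. The differences were -0.03 (95% interval -0.14 to 0.08, adjusted p = 0.845) in HFoleic, -0.04 (adjusted p = 0.830) in HFepa and -0.01 (-0.13 to 0.10, adjusted p = 0.972) between them. The interval of Got2 in HFoleic against reference thus left room only for differences of -0.14 to 0.08.

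No probe of the malate dehydrogenases was called. For Mdh2, the mitochondrial enzyme (chr5:136266157-136266216), the signal ran from 15.45 over 15.52 to 15.95 in reference, from 15.39 over 15.51 to 15.68 in HFoleic and from 15.42 over 15.49 to 15.58 in HFepa, with overlapping ranges. Its differences were -0.05 and -0.08 against reference (adjusted p = 0.722 and 0.646) and -0.03 (0.929) between the obesogenic groups.

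Mdh1, the cytosolic enzyme, had 3 probes that did not share a sign. The 3′ probe (chr11:21457280-21457339) ran from 14.67 over 14.94 to 15.13 in reference, from 14.96 over 15.09 to 15.19 in HFoleic and from 14.83 over 14.94 to 15.10 in HFepa. It differed from the reference by 0.16 in HFoleic (95% interval 0.03 to 0.29, adjusted p = 0.150) and 0.02 in HFepa (0.959). All ranges of this probe overlapped. The second probe, with ranges of 13.46 to 14.24 in reference, 13.85 to 14.21 in HFoleic and 13.70 to 14.08 in HFepa, gave 0.05 and -0.06 (adjusted p = 0.796 and 0.843). The remaining probe, designed on another cDNA (chr11:21470088-21470147), ran from 9.19 to 9.68, from 8.96 to 9.40 and from 8.93 to 9.50, and gave -0.23 and -0.17 (adjusted p = 0.133 and 0.456). These probes of Mdh1 thus disagreed in sign within differences that passed no test. HFepa stood below HFoleic by -0.14 on the 3′ probe, the only member probe with an unadjusted p under 0.05 in that comparison (p = 0.0453 and adjusted p = 0.532 in limma, exact permutation p = 0.0155, 0.186 after adjustment). The other Mdh1 probes gave -0.11 and 0.06 there (limma adjusted p = 0.735 and 0.907), the last with the opposite sign.

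Counted over the members, 5 of 12 probes were called lower in HFoleic against reference, the 3 of Got1 and the 2 of Gpt2, where 6.59% of all 32176 probes were called and 2.9% were called lower. Apart from Got1, 2 of 9 probes were called. Of the 12 probes, 10 had a negative difference, with a median of -0.20 beside -0.00 over all probes. By the brightest probe of each gene, 11133 of all 21559 genes were negative. Every HFoleic array lay below every reference array on 2 member probes, both of Got1, and on 0.242% of all probes. The Got1 part of these counts and of the median was fixed by the choice of the gene, and nothing is read from it.

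In HFepa against reference 3 of 12 probes were called lower, all of Got1, where 0.342% of all probes were called and 0.183% were called lower. The choice of Got1 used this comparison, and nothing is read from that count. Apart from Got1, 0 of 9 probes were called in limma and in the methods' own test, and 4 of 9 were under 0.05 before adjustment, as were 12.9% of all probes. The median difference was -0.25 beside 0.00 over all probes, and 11 of 12 were negative. By the brightest probe of each gene, 10734 of all 21559 genes were negative. All HFepa arrays lay below all reference arrays on 1 member probe, the Got1 junction probe, and on 0.0528% of all probes. The Got1 part of this median and of these counts was likewise fixed by the choice of the gene, and nothing is read from it.

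Between HFepa and HFoleic 0 of 12 member probes were called in limma, as were 0% of all probes (2969 probes were under 0.05 before adjustment), and 1 of 12 was under 0.05 before adjustment. The groups were apart on 0 member probes, where 0.143% of all probes did not overlap in either direction.

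Of 9 clock genes measured, 1 (Nr1d2) was called in HFoleic against reference and 0 in HFepa, but a score over them differed in its group means. This clock score, the mean log2 signal of Per1, Per2, Per3, Dbp, Tef, Nr1d1 and Nr1d2 minus that of Arntl and Clock, averaged -0.41 in reference, 0.54 in HFoleic and 0.27 in HFepa, with overlapping ranges, the reverse of the order of Got1. With the score as a covariate the Got1 difference on the 3′ probe was -1.54 in HFoleic and -1.22 in HFepa. The Gpt2 differences in HFoleic were then -0.76 (adjusted p = 0.0155) on the 3′ probe and -0.66 (adjusted p = 0.0588) on the junction probe. With the score in the fit, 12 of the 18 pathway calls described next were kept in HFoleic, and those of Asns, Etnppl, Fh1, Gls2, Mpc1 and Tat were lost. Over all 32176 probes the calls of that comparison fell from 2122 to 765, so losing a call was not particular to these genes. The part of clock state in these differences was otherwise not tested.

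The surrounding pathway was read from 7 lists of enzymes and carriers, written with earlier results of these data known, in which 62 of 67 genes had a tested probe. On the brightest probe of each gene, 7 genes were called higher and 11 lower in HFoleic against reference, where 4.12% of all 21559 genes were called higher and 3.26% lower. The median difference of the 62 genes was -0.10, beside -0.01 for all genes, and 40 of 62 were negative, as were 11133 of all 21559. In HFepa against reference 0 of 62 genes were called in limma and in the test of the study's methods, 26 were under 0.05 before adjustment (13.4% of all genes were), 41 were negative and the median was -0.10, where 0.334% of all genes were called. That count was 8 genes without reference replicate 8, and 1 gene without HFepa replicate 3, without reference replicate 6 or with only probes above background on all arrays. Over all probes, 467 were called without reference replicate 8, where 110 were in the main fit. Between HFepa and HFoleic 0 of 62 genes were called by either test, as were 0 of all probes. In limma 10 genes were under 0.05 before adjustment (9.48% of all genes were).

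Among the carriers of the malate-aspartate shuttle, 1 of 3 was called. Slc25a12 (aralar), which exchanges mitochondrial aspartate for cytosolic glutamate, fell by 0.59 in HFoleic, from 10.09 ± 0.26 (SD, n = 9) to 9.50 ± 0.10 (n = 8; limma adjusted p = 0.000703), and 3 of its 5 probes were called. In HFepa it differed by -0.33 (adjusted p = 0.108). The other carriers had brighter probes and were not called in HFoleic. Slc25a13 (13.68 in reference) differed there by -0.05 (limma adjusted p = 0.737) and Slc25a11 (13.30 in reference) by -0.11 (limma adjusted p = 0.371). None of the 3 genes of the glycerol phosphate shuttle, which serves the same end by another route, was called. The largest difference there was that of Gpd2, -0.22 in HFoleic (adjusted p = 0.369).

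Of 14 other aminotransferases measured, 3 were called higher and 2 lower in HFoleic. Tat, the first enzyme of tyrosine breakdown, fell by 0.63, from 14.89 ± 0.40 (n = 9) to 14.26 ± 0.24 (n = 8; limma adjusted p = 0.00903), a call that was lost with the clock score. Etnppl, a phospho-lyase of the aminotransferase family that acts on phosphoethanolamine, fell by 0.84 (limma adjusted p = 0.0314), and 2 of its 3 probes were called. The call of Etnppl was lost without HFoleic replicate 2, 6 or 7. The kynurenine aminotransferases Ccbl1 and Ccbl2 rose by 0.38 and 0.64 (adjusted p = 0.00856 and 0.00633), the second on 1 of 2 probes. Gfpt1, which passes an amino group from glutamine into the hexosamine pathway, rose by 0.44 in HFoleic (limma adjusted p = 0.0101), where 2 of its 4 probes were called. It differed by -0.04 (limma adjusted p = 0.918) in HFepa.

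Glutamate, the partner of each transamination, was represented by 9 genes, of which 1 was called higher and 1 lower. Glud1, the glutamate dehydrogenase of mitochondria, rose by 0.41, from 15.59 ± 0.19 (n = 9) to 15.99 ± 0.12 (n = 8, limma adjusted p = 0.00295), on 2 of 3 probes. Gls2, the liver glutaminase, fell by 0.48 on its brightest probe (adjusted p = 0.0223), and both its probes were called. The call of Gls2 was lost with the clock score, in the test of the study's methods and with the replicate number as a block.

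Of 11 genes that make or use aspartate and asparagine, 2 were called higher and 2 lower. Asns, which makes asparagine from aspartate, fell by 1.67, from 8.74 ± 0.92 (n = 9) to 7.07 ± 0.78 (n = 8; limma adjusted p = 0.00962), on 1 of 2 probes. Asl, the urea cycle enzyme that cleaves argininosuccinate, fell from 14.55 ± 0.45 to 13.45 ± 0.21 (adjusted p = 0.000756), and both its probes were called. Nit2, an amidase of glutamine transamination, rose by 0.69 (adjusted p = 0.00263). Cad, the start of pyrimidine synthesis from aspartate, rose by 0.36 (limma adjusted p = 0.0269), on 1 of 2 probes. The call of Cad was lost without HFoleic replicate 1, 2 or 4 or reference replicate 2. In HFepa, Asns differed by -0.99 (adjusted p = 0.277) and Asl by -0.61 (adjusted p = 0.112).

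Of 6 genes around cysteine sulfinate, an alternative substrate of aspartate aminotransferase, 1 was called. Cth, the last enzyme of cysteine synthesis, fell by 0.80, from 14.33 ± 0.42 (n = 9) to 13.53 ± 0.11 (n = 8; limma adjusted p = 0.00244). Its HFepa difference was -0.64 (adjusted p = 0.0605).

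Of 16 genes of pyruvate, lactate and oxaloacetate metabolism, 1 was called higher and 4 lower in HFoleic. Pck1, which turns oxaloacetate into phosphoenolpyruvate in gluconeogenesis, fell by 0.74, from 16.82 ± 0.26 (n = 9) to 16.08 ± 0.24 (n = 8; limma adjusted p = 0.000688). Sds and Sdsl, the dehydratases that form pyruvate from serine, fell by 0.96 (adjusted p = 0.00692, on 1 of 2 probes) and fell by 1.14 (0.00270). Fh1, the fumarate hydratase, fell by 0.42 (adjusted p = 0.0110), whereas Mpc1, a subunit of the mitochondrial pyruvate carrier, rose by 0.33 (adjusted p = 0.00917). The HFepa difference of Pck1 was -0.29 (adjusted p = 0.259). With the clock score as a covariate the calls of Fh1 and Mpc1 were lost.

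**Figure D3:**
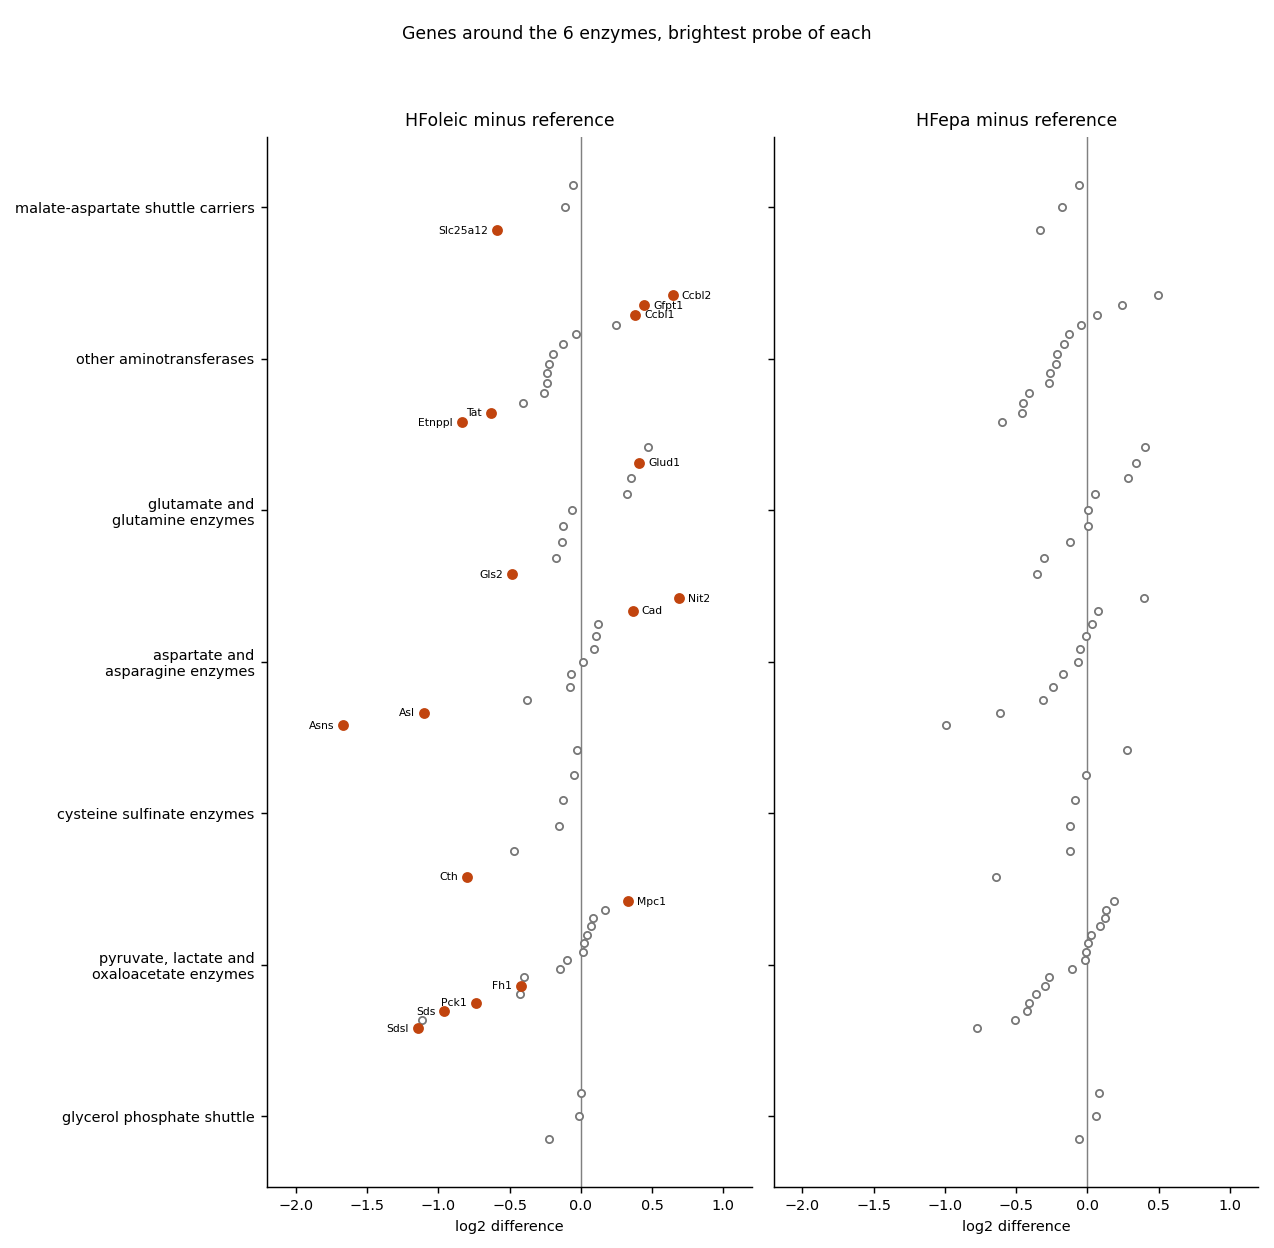
Log2 difference of the 62 pathway genes measured, by list, in HFoleic minus reference (left) and HFepa minus reference (right), with 1 point per gene. Filled, named points are the 18 genes called, from Asns at -1.67 to Nit2 at 0.69 on the left and none on the right, and open points are genes not called. Genes are ordered by size within each panel, so a height on the left and on the right need not be the same gene.

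Some pairs of members varied together from mouse to mouse within groups. Deviations of each array from its group mean were correlated over the 24 arrays for all 15 pairs of members on their brightest probes, with 100000 permutations within groups (two-sided) and p-values adjusted over the 15 pairs by Benjamini-Hochberg. By Pearson's r 5 of 15 pairs passed, and 3 without the 2 arrays farthest from the median of the first gene. No share over other pairs of genes was computed, so the members are not shown to vary together more than other genes do. Got2 and Gpt went together at r = 0.73 and rho = 0.72 (permutation p = 0.00021 and 0.00027, adjusted 0.0016 and 0.0020), with 0.33 within reference, 0.90 within HFoleic and 0.84 within HFepa. Gpt and Mdh1 gave r = 0.70 and rho = 0.73 (permutation p = 0.0001 and 0.00019, adjusted 0.0015 and 0.0020), with 0.76, 0.74 and 0.78. Both passed without those 2 arrays, at r = 0.66 and 0.64, and were 0.75 and 0.65 without reference replicate 5.

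Got1 and Gpt2, the members that were lower on the diet, gave r = 0.69 and rho = 0.54 (permutation p = 0.00088 and 0.0104, adjusted 0.0044 and 0.0313). This relation was 0.86 within reference and 0.77 within HFoleic but -0.27 within HFepa. It rested in part on 2 arrays, without which r was 0.45 (permutation, adjusted p = 0.167), and was 0.55 without reference replicate 5. Gpt went with Got1 at r = 0.57 and rho = 0.56 (permutation p = 0.00453 and 0.00709, adjusted 0.0170 and 0.0313), and at r = 0.60 without the 2 farthest arrays. Its relation with Gpt2, r = 0.54 and rho = 0.54 (permutation p = 0.00809 and 0.00921, adjusted 0.0243 and 0.0313), rested on the 2 farthest arrays, without which r was 0.30 (adjusted p = 0.403). On the mean of all probes Gpt and Gpt2 gave r = 0.37, which did not pass (permutation, adjusted p = 0.162). On the brightest probes their relation was 0.66 within reference, 0.76 within HFoleic and -0.17 within HFepa, whereas Got1 and Gpt gave 0.62, 0.59 and 0.58. Without reference replicate 5 the relation of Gpt with Got1 was 0.47 and with Gpt2 0.44. Within slides 1, 2 and 3 the Got1 and Gpt2 relation was 0.88, 0.60 and 0.47, that of Got2 and Gpt 0.80, 0.56 and 0.80, that of Gpt and Mdh1 0.75, 0.85 and 0.34, that of Got1 and Gpt 0.77, 0.27 and 0.48, and that of Gpt and Gpt2 0.70, 0.65 and 0.46. Got1 and Got2, the cytosolic and mitochondrial forms of the same enzyme, gave r = 0.11 and rho = 0.09 (permutation p = 0.571 and 0.697, adjusted 0.659 and 0.789).

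**Figure D4:**
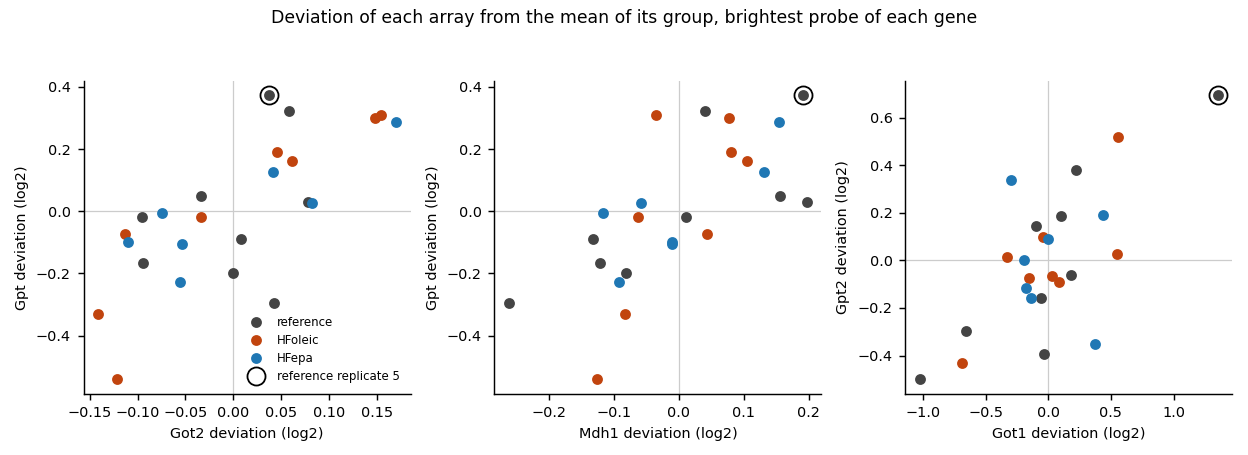
Deviations of single arrays from their group mean, in log2 units, for Got2 and Gpt, Mdh1 and Gpt, and Got1 and Gpt2, with 1 point per mouse, groups in separate colours and a ring around reference replicate 5. That array is the far point for Got1 and Gpt2, whose relation falls from r = 0.69 to 0.55 without it.

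The genes whose deviations most resembled those of Got1 were ranked over the same 24 arrays among 20556 genes, as a description without a test, since the arrays share slides and the one array that stood apart. The 5 highest were Slc25a15 (r = 0.89), the mitochondrial ornithine carrier of the urea cycle, Aim1 (0.84), Nnmt (0.84), which methylates nicotinamide, Lmo7 (0.83) and Nfkbib (0.81), an inhibitor of NF-kappaB. Without reference replicate 5 these were 0.81, 0.74, 0.72, 0.73 and 0.76. The 3 lowest were Glo1 (-0.84), the glyoxalase that clears methylglyoxal, the E-box factor Usf2 (-0.83) and Isoc1 (-0.82), and -0.74, -0.71 and -0.70 without that array. Of the members, counting Got1 itself, Gpt2 had 77 genes above it, Gpt 475, Mdh1 4170, Mdh2 4336 and Got2 7164.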

How the data were processed

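Array text output and a table of processed values were used for 24 liver samples. The authors deposited scanner output of Agilent Feature Extraction (version 10.10.1.1, per the labels), in which each spot has a median signal and a processed signal as intensity values. The deposited log2 table of 32176 probes, with 2550 empty cells, was used for all main results. Per the study's methods the authors had filtered median signals, taken log2 and quantile normalized them, and the filter is not stated. The columns of that table correlated with the same array's scanner values at 0.9997 or more. The scanner's 0 or 1 marks of outliers and of signal well above background, per the file headers, and the deposited slide and row numbers served for checks. Probe names, gene names and mm9 coordinates were those of the scanner files.

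A group-means model of all 24 arrays was fitted with limma 3.58.1 in R 4.3.3 (lmFit, eBayes), two-sided, with Benjamini-Hochberg adjustment over all probes per comparison, and called at an adjusted p under 0.05. This model and its moderated contrasts were chosen here. The study's methods name a t-test without its form, and a Welch t-test per probe on the deposited table was run as an alternative. Intervals are at 95%. The number of arrays limits the precision. Members are all probes of the 6 genes. Other genes are read from the brightest tested probe, and of each pathway list every called gene is named (at most 6, or the largest difference where none is called). The members and lists were chosen with earlier results of these data known. Genes like Got1 are the 5 highest and 3 lowest correlations. Alternatives were the scanner median signal, processed signal, normexp background correction, other filters, 2 groups only, slides, rows, a replicate block, a clock score and leaving out each of 24 arrays. Self-written steps were tested on simulated data. Python 3.11.15, pandas 2.3.3, numpy 2.4.6, scipy 1.17.1, matplotlib 3.10.9 and the R package data.table (version 1.17.8) were used.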

Additional observations from a re-analysis of the deposited data

Results flagged for a closer look

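In groups of 7 to 9 arrays, 4 of 36 combinations of a member probe and a group held an array far from the others by Dixon's criterion, where chance gives about 1 in 20. Reference replicate 5 was the highest for the Got1 junction probe, at 12.31 with the next at 11.19, and for Mdh2, at 15.95 with the next at 15.60. HFepa replicate 7 was the highest of its group for the Gpt inner probe, at 10.48 with the next at 10.27. Reference replicate 6 was the lowest for the second Mdh1 probe, at 13.46 with the next at 13.87.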

How the results depend on the processing

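In HFoleic against reference, 5 member probes were called when any of the 24 arrays was left out. Of these, 3 were of Got1, whose choice used this comparison, and nothing is read from them. The other 2 were of Gpt2, whose differences stayed between -0.78 and -0.55. The junction probe of Gpt2 missed the threshold in the Welch t-test (adjusted p = 0.0635) and with the clock score in limma (0.0588). In HFepa against reference the 3 called probes, all of Got1, whose choice used this comparison, became 0 without a filter on dim probes, in the Welch t-test, with 2 groups only and with the clock score, and 0 to 4 when 1 array was left out (0 without HFepa replicate 1, 2, 6 or 7 or reference replicate 1 or 2, 1 without reference replicate 4). Over all probes the calls of that comparison moved as well, from 110 in the main fit to 0 without the filter. They were also 0 in the Welch t-test and with 2 groups only, and 2 with the clock score. When 1 array was left out they ranged from 0 (without HFepa replicate 2 or 6 or reference replicate 2) to 467 (without reference replicate 8). Without reference replicate 8 the Gpt2 3′ probe was called there (-0.63, limma adjusted p = 0.0302). Called pathway genes in that comparison were 1 with only probes above background on all arrays and 0 to 8 when 1 array was left out (8 without reference replicate 8). Of 18 pathway genes called in HFoleic, 12 were kept with the clock score (not Asns, Etnppl, Fh1, Gls2, Mpc1 and Tat), 15 in the Welch t-test (not Cad, Etnppl and Gls2), 16 with the replicate block (not Etnppl and Gls2) and 16 without a filter on dim probes (not Cad and Etnppl). Over all probes, 2122 were called in the main fit of that comparison. In the same order of settings 765, 1498, 1668 and 1451 were called. Of the correlations, 3 of 15 passed without the 2 farthest arrays, and that of Gpt with Gpt2 did not pass on the mean of all probes.

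Across the fits other than those within slides and rows, signs turned for these member differences, none of which passed a test: Mdh1 second probe in HFoleic, -0.0084 to 0.089 when 1 array was left out, and Mdh1 3′ probe in HFepa, -0.027 with the processed signal, -0.0074 with the clock score and -0.018 to 0.040 when 1 array was left out. Between the obesogenic groups, Got2 gave 1.5e-05 with the clock score and -0.042 to 0.0085 when 1 array was left out, and Mdh2 gave 0.011 with the processed signal. Correlations that turned sign were Got1 with Mdh2 (-0.33), Gpt2 with Mdh1 (-0.0070) and Gpt2 with Mdh2 (-0.015) without the 2 farthest arrays, Got2 with Mdh2 (0.012) on scanner signals, and Gpt with Mdh2 (-0.016) and Gpt2 with Mdh1 (-0.022) on the mean of all probes. Within slides 13 of 108 differences of member probes and within rows 6 of 72 had the opposite sign of the full fit, none of them called, among them the third Mdh1 probe in HFoleic within slide 2 (0.032) and Gpt2 in HFepa against HFoleic within slide 3 (-0.043 on the 3′ probe and -0.0011 on the junction probe). Causes were not tested.

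Replicate numbers recur across groups, and the labels do not say that they pair mice. Per the study's methods, mice of both lineages were matched for body weight before the obesogenic diet. In deviations from the group means, 3 of 22 same-numbered pairs correlated above 0.1 (-0.28 to 0.34). Such correlations cannot show whether mice were paired. With the replicate number as a block, 5, 2 and 0 member probes were called in the 3 comparisons. The choice of Got1 used the comparisons against reference, and nothing is read from its part of those counts.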
